A study of Homo sapiens with 6 samples.

Results

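The genes described here encode the negative feedback loop of the ERK pathway and a companion transcript: the dual-specificity phosphatases DUSP1, DUSP4, DUSP5 and DUSP6, the Sprouty proteins SPRY1, SPRY2 and SPRY4, the Sprouty-related SPRED1 and SPRED2, and PHLDA1. They were chosen by name, as 10 of the 19775 genes that the array annotation pairs with a probe set of 1 symbol, and they were read by 26 probe sets. All 10 passed the filter on low values. OVCA433, an established line from a high-grade serous cancer of the ovary, was measured on Affymetrix U133 Plus 2.0 arrays, with 3 arrays of untreated control cells and 3 of cells treated with exogenous versican (VCAN), a matrix proteoglycan with chondroitin sulfate chains. The labels state that both groups received fresh medium 24 hours after seeding, without versican in the controls and with it in the treated dishes, and give RNA harvest at 48 hours. Cells were grown in RPMI1640 with 10% fetal bovine serum. The dose and form of versican are not given in the sources used here, and the treatment protocol also speaks of transfected cells at harvest, which the sample titles do not. The samples of a group are called independent without further detail, so p-values cover only how these arrays vary within a group, part of which may be technical, in 1 cell line. The RNA is of whole dishes, so a change in the share of cells that express a gene and a change per cell cannot be told apart.

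Growth factor receptors activate RAS, which turns on the RAF, MEK and ERK kinases in sequence. ERK activity then induces genes whose products shut the pathway down at different levels: DUSP phosphatases remove the phosphates from ERK and its relatives, Sprouty proteins act between the receptor and RAF, and SPRED proteins bring the RAS inhibitor neurofibromin to the membrane. Levels of these transcripts are therefore often read together as a sign of ERK output, although each gene also answers to other signals.

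Over the tested genes, the correlation between arrays was 0.993 to 0.995 within a group and 0.969 to 0.972 between control and versican. The 3'/5' signal ratio of ACTB ran from 1.22 to 1.29 in control and from 1.24 to 1.27 in versican arrays. All 9 markers fixed for serous ovarian epithelium were above the filter. The lineage factor PAX8 rose (log2 0.90), CD24, MSLN and KRT19 fell by 0.58, 0.30 and 0.21 on the log2 scale, and the other 5, among them the keratins KRT7, KRT8 and KRT18, did not pass. Their summed signal was 124650 to 145590 in control and 123240 to 125080 in versican arrays. Of 8 fibroblast markers only COL1A1 passed the filter, and it fell (log2 -0.89). The summed fibroblast signal, nearly all from COL1A1, was 5144 to 5274 in control and 2679 to 3191 in versican arrays. None of 6 leukocyte and 5 endothelial markers passed the filter. Their summed signals were 158 to 194 and 229 to 384 in control and 135 to 180 and 232 to 350.9 in versican arrays, and no defining marker was at exactly 0. The part of these differences in the results was not tested.

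The 10 genes did not move as a block. DUSP6, SPRY2 and PHLDA1 rose with versican, DUSP1, SPRY1 and SPRED2 fell, and DUSP4, DUSP5, SPRY4 and SPRED1 did not pass the test. The count of 6 called members among 10 stands beside a background of 41.6% of all 9887 tested genes called (21% higher and 20.6% lower), so many genes were called that this count is not read as particular to the members. The groups did not overlap for 7 of the 10, where 52.2% of tested genes did not overlap. The median log2 fold change of the members was 0.09, beside 0.01 for all tested genes, and their median absolute value was 0.26, beside 0.18. Signals are MAS5 probe set values on a linear scale, fold changes are on the log2(signal + 16) scale, and a gene was called at an adjusted p under 0.05 in limma over all tested genes.

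**Figure D1:**
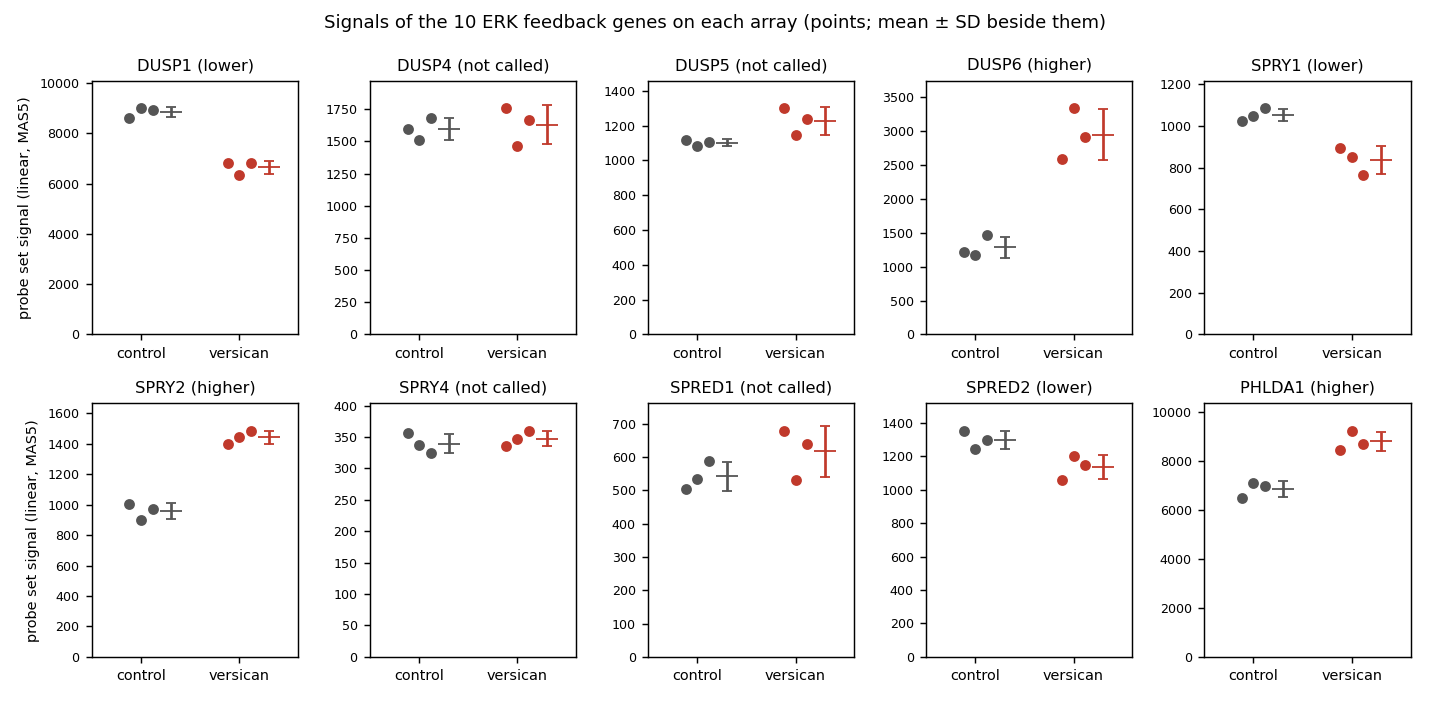
Probe set signal (linear MAS5 scale, each axis from 0) of the 10 genes on the 3 control and 3 versican arrays, with each group's mean and SD beside the points and the call in each title. DUSP6 shows a wide gap between groups (1180 to 1464 against 2587 to 3339), while the groups overlap for DUSP4, SPRY4 and SPRED1.

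DUSP6 encodes the cytoplasmic phosphatase MKP-3, which acts almost exclusively on ERK and is induced by it. Its signal was 1219, 1180 and 1464 on the 3 control arrays and 2587, 3339 and 2913 on the 3 versican arrays. Every versican array lay well above every control array. The means were 1287 ± 154 and 2947 ± 377 (SD, n = 3 each), a 2.27-fold increase (log2 1.18, SE 0.10, 95% interval 0.96 to 1.41, adjusted p = 1.2e-05). DUSP6 stood at rank 43 from the top of the 9887 tested genes. It was the only member that was called and changed by at least 2-fold, as was the case for 2.13% of tested genes. The 2 further DUSP6 probe sets rose as well. 208892_s_at went from 783 ± 83 to 1663 ± 133 (SD, n = 3 each, log2 1.07) and 208893_s_at from 418 ± 71.8 to 1089 ± 48.5 (SD, n = 3 each, log2 1.36). Against the fold change of 208891_at, theirs differed by -0.11 (95% interval -0.43 to 0.20) and 0.18 (95% interval -0.14 to 0.50) on the log2 scale, and neither difference passed (adjusted p = 0.79 and 0.63).

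The window around the RefSeq start of DUSP6 is shown because this gene rose most of the 10. It lies at chr12:89352452-89352751 on the minus strand of GRCh38.p14 and spans 250 bases before to 50 after the start, 5′ to 3′. Capitals mark the only match to the motifs searched, a CCAAT box on the reverse strand whose first base lies 46 bases before the start. No TATA box, AP-1 site or cAMP response element was matched in these letters.
DUSP6: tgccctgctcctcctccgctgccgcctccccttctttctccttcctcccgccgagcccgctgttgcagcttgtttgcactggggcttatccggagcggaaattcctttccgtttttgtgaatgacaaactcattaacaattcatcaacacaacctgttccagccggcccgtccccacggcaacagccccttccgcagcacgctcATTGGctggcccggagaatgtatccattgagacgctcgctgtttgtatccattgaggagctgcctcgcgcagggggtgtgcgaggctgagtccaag

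DUSP1 encodes the nuclear phosphatase MKP-1, an immediate-early gene whose product acts on p38 and JNK as well as ERK. In contrast to DUSP6, it fell. Its control signals were 8620, 9002 and 8948 and its versican signals 6802, 6352 and 6804. All versican values lay below all control values, with a spread within groups far smaller than the gap. The means were 8857 ± 207 and 6653 ± 260 (SD, n = 3 each), 1.33-fold lower (log2 -0.41, SE 0.05, 95% interval -0.52 to -0.30, adjusted p = 0.00011). That brightest probe set, 201041_s_at, and both further ones are of types that can bind more than 1 transcript. The dimmer 201044_x_at, of a type that can bind related transcripts, went from 266 ± 14.1 to 204 ± 17.5 (SD, n = 3 each). Its log2 fold change of -0.36 missed the threshold in the probe set fit (adjusted p = 0.052). 226578_s_at, at 90.6 ± 26.1 and 78.0 ± 17.1 (SD, n = 3 each), did not pass (log2 -0.17, adjusted p = 0.64).

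The DUSP1 window is shown because this member fell most. It lies at chr5:172771146-172771445 on the minus strand of GRCh38.p14. Capitals mark a whole cAMP response element 125 bases before the start, the short form of that element (TGACG), an E-box 108 bases before the start that overlaps one of the short matches, and a TATA box 30 bases before the start.
DUSP1: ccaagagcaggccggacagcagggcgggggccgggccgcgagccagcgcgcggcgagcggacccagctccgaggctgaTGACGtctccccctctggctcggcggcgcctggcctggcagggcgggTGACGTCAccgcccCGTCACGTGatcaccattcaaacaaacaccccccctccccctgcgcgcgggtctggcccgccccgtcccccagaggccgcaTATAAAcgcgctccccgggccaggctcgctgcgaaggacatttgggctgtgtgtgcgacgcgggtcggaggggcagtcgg

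DUSP4 encodes MKP-2, a nuclear phosphatase close to DUSP1. Its brightest probe set read 1597, 1509 and 1679 in control and 1758, 1464 and 1666 in versican arrays. The groups overlapped, and the log2 fold change was 0.03 (SE 0.08, 95% interval -0.14 to 0.20, adjusted p = 0.80). In its 2 further probe sets all versican values lay above all control values, yet neither passed: 204015_s_at had a log2 fold change of 0.14 (adjusted p = 0.23) and 226034_at of 0.09 (adjusted p = 0.32). An increase of DUSP4 of the size seen for DUSP6 lies outside the intervals of all 3 probe sets.

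DUSP5, a nuclear phosphatase specific for ERK, was read by 1 probe set. It had signals of 1120, 1083 and 1107 in control and 1300.5, 1144 and 1237 in versican arrays. The groups did not overlap, but the gap was narrow against the spread of the versican arrays, and the log2 fold change of 0.15 (SE 0.07, 95% interval 0.00 to 0.30) did not pass (adjusted p = 0.094). Without versican replicate 2, the array with the lowest value of its group, it passed (log2 0.20, adjusted p = 0.042), and it also did with array weights (adjusted p = 0.045).

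The 3 Sprouty genes differed from each other. SPRY2, an inducible inhibitor between receptor tyrosine kinases and RAF, rose. Its signals were 1003, 902 and 973 in control and 1397, 1442 and 1487 in versican arrays. The groups were clearly apart, with means of 960 ± 51.6 and 1442 ± 45.0 (SD, n = 3 each). The increase was 1.5-fold (log2 0.58, SE 0.06, 95% interval 0.44 to 0.72, adjusted p = 6.5e-05), and SPRY2 had 1 probe set.

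SPRY1, its relative, fell. It read 1024, 1048 and 1085 in control and 895, 852 and 764 in versican arrays. Again the groups did not overlap, with means of 1053 ± 30.6 and 837 ± 66.5 (SD, n = 3 each), 1.25-fold lower (log2 -0.33, SE 0.08, 95% interval -0.49 to -0.16, adjusted p = 0.0059). The second SPRY1 probe set, 230212_at, was dim (177 ± 23.1 and 162 ± 48.5, SD, n = 3 each), and its groups overlapped (log2 -0.15, adjusted p = 0.64). When the probe sets of a gene were averaged, SPRY1 did not pass (log2 -0.24, adjusted p = 0.15).

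SPRY4, the third Sprouty measured, had signals of 356, 337 and 325 in control and 335, 347 and 360 in versican arrays. The values of both groups covered the same range (log2 0.03, SE 0.10, 95% interval -0.18 to 0.25, adjusted p = 0.81). The interval of SPRY2 overlapped neither that of SPRY1 nor that of SPRY4, and differences between genes were not tested.

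Of the SPRED genes, SPRED1 did not pass. Its brightest probe set read 505, 533 and 589 in control and 679, 531 and 640 in versican arrays, with overlap (log2 0.18, SE 0.11, 95% interval -0.06 to 0.41, adjusted p = 0.21). A second, 235074_at, gave a log2 fold change of -0.01 (adjusted p = 0.96), and 244439_at lay below the filter at 50.5 ± 10.7 and 48.9 ± 9.27 (SD, n = 3 each).

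SPRED2 was called lower by a small margin. It read 1353, 1245 and 1297 in control and 1057, 1198 and 1145 in versican arrays. The groups did not overlap, but the lowest control and the highest versican value lay close together, and the decrease was 1.14-fold (log2 -0.19, SE 0.07, 95% interval -0.35 to -0.04, adjusted p = 0.042). The same probe set missed the threshold when every probe set was its own unit (adjusted p = 0.058), and the call was lost without control replicate 1 or 3 (adjusted p = 0.12 and 0.088) and without versican replicate 1 or 3 (0.16 and 0.081), with the replicate block (0.074) and under 3 further alternatives given with the limits. The other SPRED2 probe sets were near background, at 12.4 ± 11.5 and 25.5 ± 2.70 for 212466_at and 9.33 ± 7.77 and 2.38 ± 0.613 for 214026_s_at (SD, n = 3 each), and were not tested.

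PHLDA1 encodes a pleckstrin homology-like domain protein. Its transcript is often read together with those of the other members, whichever way they moved here, as a sign of ERK output. Its brightest probe set had signals of 6478, 7075 and 6972 in control and 8460, 9232 and 8677 in versican arrays. All versican arrays were above all control arrays, and the increase was 1.28-fold (log2 0.36, SE 0.06, 95% interval 0.24 to 0.48, adjusted p = 0.00055). Of its 6 probe sets, all tested, 4 rose, by 0.36 to 0.82 on the log2 scale. The dim 218000_s_at (189 ± 32.4 and 251 ± 21.6, SD, n = 3 each) pointed the same way but did not pass (log2 0.39, adjusted p = 0.08). 217997_at, which went from 690 ± 64.1 to 1227 ± 64.3 (SD, n = 3 each), rose by 0.46 more than the brightest one (95% interval 0.25 to 0.67, adjusted p = 0.034). 217998_at pointed the other way, with 772, 519 and 497 in control and 478, 511 and 525 in versican arrays. There only control replicate 1 was high, and the other values of both groups lay together (log2 -0.21, adjusted p = 0.33). Its difference from the brightest probe set (-0.57, 95% interval -0.94 to -0.20) did not pass (adjusted p = 0.12). The size of the PHLDA1 increase therefore depends on the probe set read.

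Over all 26 probe sets of the 10 genes, 23 passed the filter, of which 8 were called higher and 2 lower. This share stands beside 27.8% of 27306 tested probe sets called (13.6% higher and 14.1% lower). The 8 belonged to only 3 genes (3 of DUSP6, 1 of SPRY2 and 4 of PHLDA1), and probe sets of 1 gene are not independent. Among 13 pairs of a gene's brightest and a further probe set, the fold changes differed past the threshold in 1, the PHLDA1 pair above, beside 2.29% of 10852 such pairs over all genes.

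**Figure D2:**
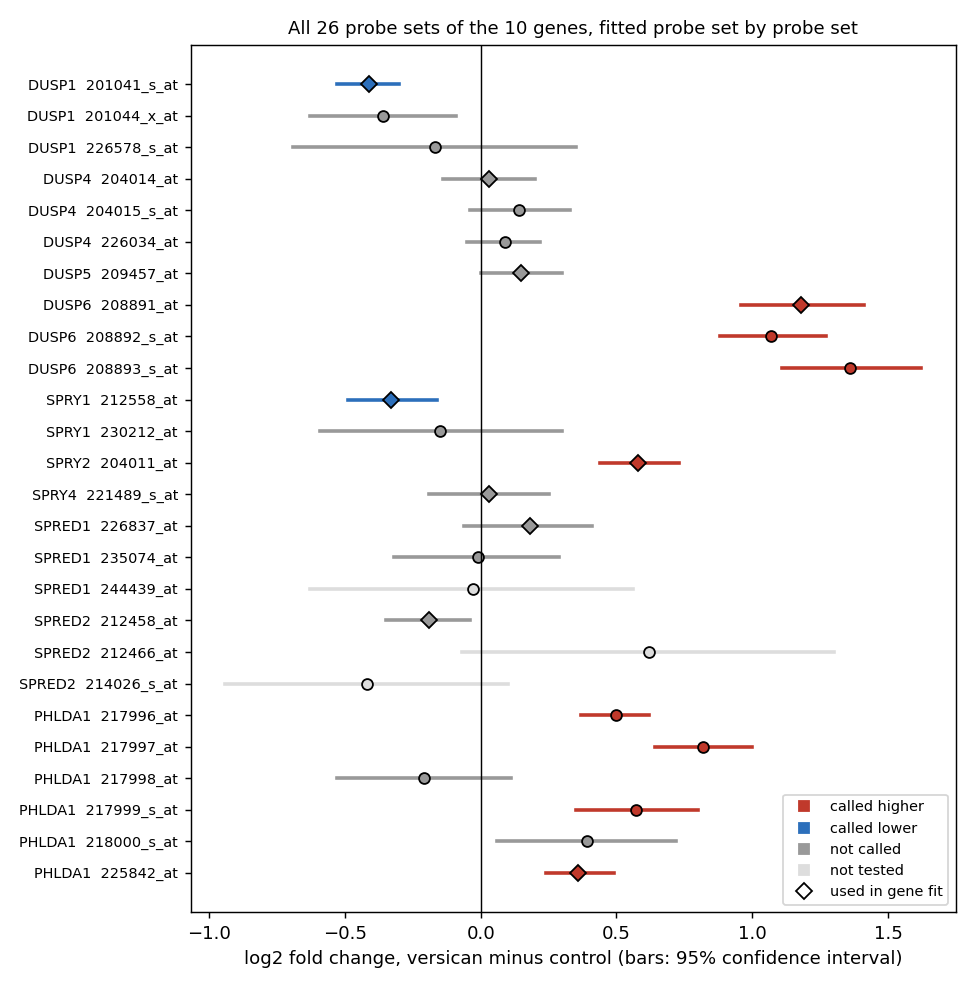
Log2 fold change (versican minus control, x axis) with its 95% confidence interval for each of the 26 probe sets, from the fit of single probe sets, with diamonds for the probe set used in the gene fit. All 3 DUSP6 probe sets lie between 1.07 and 1.36, the DUSP4 ones between 0.03 and 0.14, and those of PHLDA1 from -0.21 to 0.82.

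Relatives of these genes also moved in both directions. Of 11 further MAPK phosphatases and Sprouty, SPRED and PHLDA relatives, 7 were tested, of which 2 rose and 2 fell (median log2 fold change 0.06). PHLDA2, an imprinted relative of PHLDA1, rose from 2887 ± 59.2 to 4539 ± 61.2 (SD, n = 3 each, log2 0.65, adjusted p = 3.3e-06), and the phosphatase DUSP14 rose by 0.36. DUSP16, a phosphatase of JNK and p38, fell by 0.33, and PHLDA3, a p53-induced inhibitor of AKT, fell by 0.24, both on the log2 scale. DUSP10 and DUSP7 did not pass (log2 0.03 and 0.06). DUSP2, DUSP8, DUSP9 and SPRY3 lay below the filter.

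Other negative regulators of receptor, RAS and ERK signalling were tested for 14 of 16 genes, of which 2 rose and 4 fell (median log2 fold change -0.02). LRIG1, which promotes loss of EGFR family receptors, rose from 225 ± 38.1 to 364 ± 35.5 (SD, n = 3 each, log2 0.67, adjusted p = 0.0032). PPP2CA, a catalytic subunit of protein phosphatase 2A, rose by 0.18 on the log2 scale (adjusted p = 0.027). The decreases were in SOCS3, an inhibitor of cytokine signalling (log2 -0.43), RASAL2, a RAS GTPase-activating protein (-0.39), CBLB, a ubiquitin ligase for receptors (-0.38), and PEA15, which holds ERK in the cytoplasm (-0.15). PEBP1, the RAF kinase inhibitor protein, and the phosphatase PTPN2 had log2 fold changes of -0.01 each and did not pass (adjusted p = 0.92 each).

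In the RAS to ERK cascade, 17 of 23 listed genes were tested, 3 rose and 2 fell (median log2 fold change -0.06). The largest of these changes was in HRAS, which went from 1199 ± 116 to 1779 ± 78.0 (SD, n = 3 each, log2 0.57, adjusted p = 0.00023). IQGAP1, a scaffold of the kinases, rose by 0.23 and PTPN11, the phosphatase SHP2, by 0.15. SOS2, a RAS exchange factor, fell by 0.37 and MAP2K1, the kinase MEK1, by 0.18, all on the log2 scale. The adapter SHC1 and the kinase ARAF did not pass (log2 -0.02 and 0.03). The other 6 listed genes were not analysed here.

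Transcripts known to follow ERK activity, other than the 10 genes, were tested for 19 of 25. Of these 8 rose and 4 fell, with a median log2 fold change of 0.05. The chromatin protein HMGA1 rose from 4481 ± 172 to 6873 ± 134 (SD, n = 3 each, log2 0.62), KLF6, a zinc finger factor, by 0.56, and FOSL1, the AP-1 subunit Fra-1, from 894 ± 88.7 to 1831 ± 200.5 (SD, n = 3 each, log2 1.02). PLAUR, the urokinase receptor, rose by 0.53 and the cytokine LIF by 0.81 on the log2 scale. FOS, the prototype immediate-early AP-1 subunit, fell from 1637 ± 28.7 to 1203 ± 14.6 (SD, n = 3 each, log2 -0.44, adjusted p = 0.00012). The remaining called genes of the list are named for completeness, after their values were seen: MYC, ETV5 and CCND1 rose by 0.61, 0.53 and 0.21, and JUNB, IER2 and IER5 fell by 0.87, 0.31 and 0.16, all on the log2 scale. IER3 and EPHA4 did not pass (log2 0.03 and 0.05). EGR3, ETV1, ETV4 and EREG lay below the filter, and EGR2 and AREG were not analysed here.

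Kinases of the JNK, p38 and ERK5 branches and their activators were tested for 11 of 14, with 2 higher and 3 lower (median log2 fold change 0.06). MAPK13, p38 delta, rose from 1663 ± 36.0 to 2719 ± 58.8 (SD, n = 3 each, log2 0.70, adjusted p = 3.6e-06), and MAPK9, the kinase JNK2, rose by 0.16. MAP2K5, the activator of ERK5, fell by 0.41 and MAP3K1 by 0.34 on the log2 scale. MAPK11, p38 beta, was called lower by a narrow margin (log2 -0.48, adjusted p = 0.049), and its groups overlapped. MAPK7, which is ERK5, and MAP2K6 did not pass (log2 -0.01 and 0.06).

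**Figure D3:**
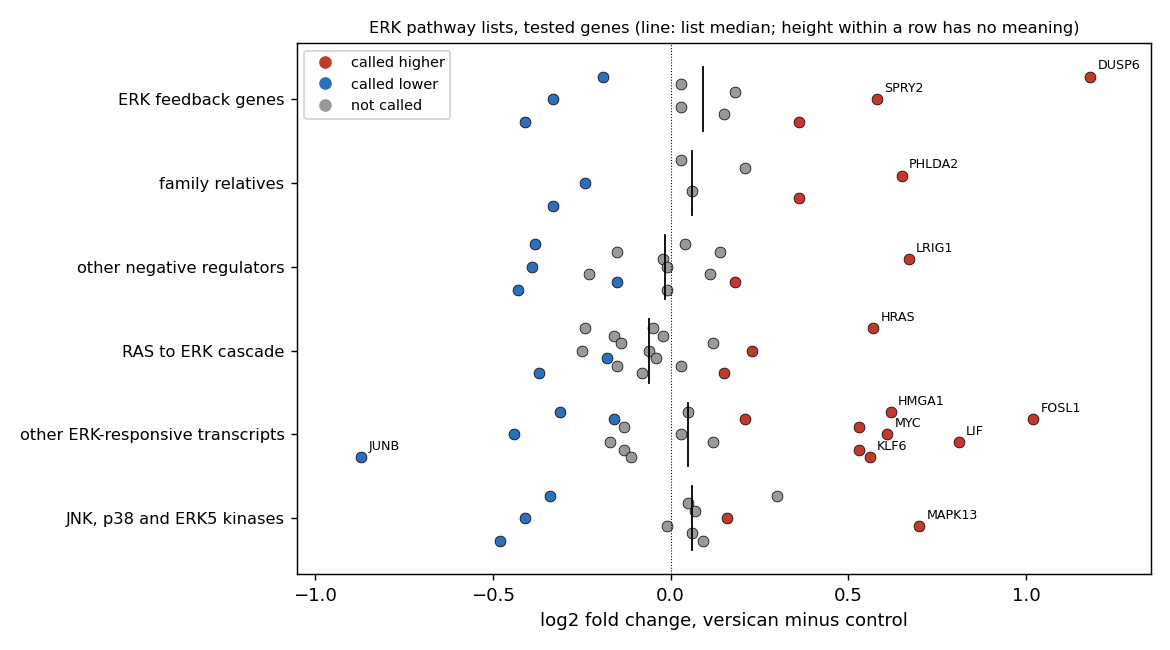
Log2 fold change (versican minus control, x axis) of each tested gene of the 10 ERK feedback genes and of 5 further ERK pathway lists, coloured by call, with a vertical line at each list's median. In each row calls lie on both sides of 0, and the medians lie between -0.06 and 0.09.

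Across the 6 arrays, the tested genes whose log2 values were most like those of DUSP6 were PIF1, ITGA3 and NR3C2 (Pearson r = 0.998, 0.998 and 0.997), which rose by 0.82, 0.57 and 0.55 on the log2 scale. Those most like DUSP1 were CLMN, TMEM45A and SLC1A5 (r = 0.999, 0.999 and 0.998), with log2 fold changes of -0.75, -0.71 and -0.58. With 2 groups of 3 arrays such values mostly restate the group difference, and 39 genes reached r above 0.99 with DUSP6 and 81 with DUSP1.

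Start site windows of 300 bases were found in RefSeq (GRCh38.p14) for 8 of the 10 genes, 12 windows in all, and not for DUSP4 and DUSP5. Both strands were searched. The whole cAMP response element, TGACGTCA, was in 1.85% of all 35116 windows and, among the members, in that of DUSP1. The short form TGACG, which also lies inside the whole element, was in 24.6% of all windows and in windows of DUSP1, SPRY2, SPRY4 and SPRED2. The AP-1 site TGANTCA, in 7.71% of windows, was matched at 2 places in 1 SPRED2 window. The E-box CACGTG was in 7.26% of windows and in that of DUSP1, and the TATA box TATAAA in 11.5% and in windows of DUSP1 and SPRED2. CCAAT was in 34.6% and in windows of DUSP6 and SPRED2. Neither the ETS site CCGGAAGT (4.14% of windows) nor the CArG box of the serum response element (1.29%) was matched in a member's window. These matches describe letters, and members that rose and members that fell shared none of them beyond the short TGACG and CCAAT.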

How the data were processed

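The authors deposited 1 table of intensity values, MAS5 probe set signals on a linear scale, per the submitters' processing notes. The version and detection calls are not given in the sources used here, and the 2% trimmed mean was 500.1 on each array. Single symbols came from GEO's platform annotation, updated through RefSeq gene identifiers. Values were analysed as log2(signal + 16) in R 4.3.3 with limma 3.58.1: lmFit on group alone, eBayes with an intensity trend, two-sided, Benjamini-Hochberg at 0.05. A gene was its probe set with the highest mean, and the upper 50% of genes by mean (9887, lowest mean signal 201) or of probe sets (27306) were tested. Probe sets of a gene were compared by fitting their log2 difference over 10852 pairs, a test added after the values were seen. The number of arrays limits the precision.

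The members and lists were chosen with earlier results of these data known. Named genes were all 10 members, up to 6 called genes of smallest p and up to 2 uncalled genes of largest p of each other list, and the 3 genes correlating best with the member that rose and the member that fell most. Any other gene, 6 of the called ERK-responsive transcripts among them, was named after its values were seen. Alternatives covered the pseudocount, filter, normalization, trend, weights, probe set choice, replicate block and each array left out.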

Additional observations from a re-analysis of the deposited data

How the results depend on the processing

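Counts were recomputed under 19 alternatives, and those of member probe sets under the 18 that keep probe sets apart. DUSP6, SPRY2 and PHLDA1 stayed called higher in all 19, with log2 fold changes of 1.09 to 1.28, 0.54 to 0.61 and 0.32 to 0.40. DUSP1 stayed called lower in the 18 that tested it. Leaving out _x_at and _s_at probe sets removed all 3 of its probe sets. SPRED2 lost its call in 8 of 18, among them no filter (adjusted p = 0.064), median centring (0.22) and no trend (0.054). With all probe sets averaged by gene, 1 member of 9 tested was called lower, beside 3 of 10 in the main fit. SPRED2 was not tested there, and 3301 of 9887 genes were called, beside 4117. With array weights 4 member probe sets of 23 tested were called lower, where 7953 probe sets were called over all, beside 7578. Without _x_at and _s_at probe sets 5 were called higher and 1 lower, of 15 tested. In the upper 25% of genes, 9 of 43 tested genes of the other lists were called lower, in place of 15 of 68. The members' median was 0.15 there and 0.16 without _x_at and _s_at probe sets. Leaving out each array gave 3 to 4 members higher and 2 to 3 lower, of 10 tested, and a median of 0.08 to 0.15. In these fits 3322 to 3848 of 9887 genes were called. DUSP4, never called, ranged from -0.03 to 0.10 and was negative without control replicate 2 (-0.01) and without versican replicate 1 (-0.03). With the replicate block 3 members were called higher and 2 lower, of 10 tested, and no member but SPRED2 changed its call. There 3973 of 9887 genes were called. Deviations from the group means correlated at 0.119, -0.0192 and -0.0901 between arrays of like number, which does not pair them. Calls over all genes went from 4117 of 9887 to 2421 of 4944 in the upper 25%. Those over probe sets went from 7578 to 4380 without _x_at and _s_at probe sets, where fewer were also tested. Among fits of 9887 genes, calls ran from 3018 with median centring to 4393 with array weights. Causes of the other changes were not tested. Low signal limits the second SPRY1 and the further SPRED2 probe sets.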
